A study of Homo sapiens with 40 samples.

Results

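Keratins are the intermediate filament proteins of epithelial cells. Type II keratins (KRT5, KRT6A, KRT6B, KRT7, KRT8) pair with type I keratins (KRT14, KRT17, KRT18, KRT19, KRT23) to form filaments, and the type II genes lie together on chromosome 12 while most type I genes lie together on chromosome 17. In the breast, KRT7, KRT8, KRT18 and KRT19 mark luminal cells, KRT5, KRT14 and KRT17 mark basal cells, and KRT6A, KRT6B and KRT17 are induced in stressed or wounded epithelium. ATAC-seq, which uses a transposase to tag accessible DNA for sequencing, gave the accessibility of chromatin around these 10 genes.

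Peaks of all 40 libraries that overlapped by at least 1 bp were merged, and merged regions found in at least 2 libraries were kept. A region was assigned to a keratin gene when its midpoint lay in the gene body or within 10 kb of either end of it. By this rule 31 of 71600 regions were keratin regions, and 7 of the 10 genes had at least 1. A library was called open at a region when it had a peak there. Each region was also given a rank percentile in each library, from the area of significance under its strongest peak, where 100 is the strongest peak of that library and 0 means that no peak was listed. The area grows with the width of a peak as well as with its height.

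BT474 is an established HER2-amplified luminal breast cancer line, and BT474R is a single clone that grew out of it under the anti-HER2 antibody trastuzumab. Cells of both lines were starved of serum and then left untreated (baseline, 0 h) or given EGF, a ligand of EGFR, heregulin (HRG), which binds HER3 and HER4, or water (control) for 1, 12 or 24 h. Each of the 20 groups had 2 libraries. The labels do not say whether these came from separate cultures, so p-values measure only the spread between libraries, which may be technical. Libraries of BT474 listed 47571 to 56846 peaks and those of BT474R 32479 to 56494, with the shortest BT474R lists at 12 h (32479 to 45808 peaks). Read depth is unknown from peak lists, and a region without a peak was below the listing threshold of its library, not shown to be closed.

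Markers of luminal cells were open in both lines, with a peak within 1 kb of the start of 8 of 9 luminal genes in all 40 libraries. ESR1, the estrogen receptor, was the exception, open in 20 of 20 BT474 and 3 of 20 BT474R libraries. Of 6 basal markers, TP63, KRT14 and ACTA2 were open in no library, while EGFR was open in all 40. Of 5 mesenchymal markers, COL1A2 and PDGFRB were open in no library and VIM and COL1A1 in all 40. The immune markers PTPRC and CD3E were open in none.

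Luminal keratin genes carried most of the regions and all of the broad ones. KRT8 had 12 regions, KRT7 had 8, KRT19 had 6, and the 4 regions of KRT18 were also counted for KRT8, because the annotated body of KRT8 runs past the neighbouring KRT18 start. KRT5 and KRT6B had 1 region each and KRT17 had 3. KRT6A, one of the inducible keratins, and KRT23, a type I keratin of other epithelia, had no peak in any library, and KRT14, the basal partner of KRT5, had a peak in 1 library only. Altogether 12 of the 31 keratin regions (38.7%) were open in every library, against 35.1% of all regions. The keratin regions were wide: 14 of 31 (45.2%) were wider than 2 kb, against 3.39% of all regions, and the median width was 1360 bp against 551 bp. These shares are descriptions, since neighbouring regions of one gene are not independent.

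**Figure D1:**
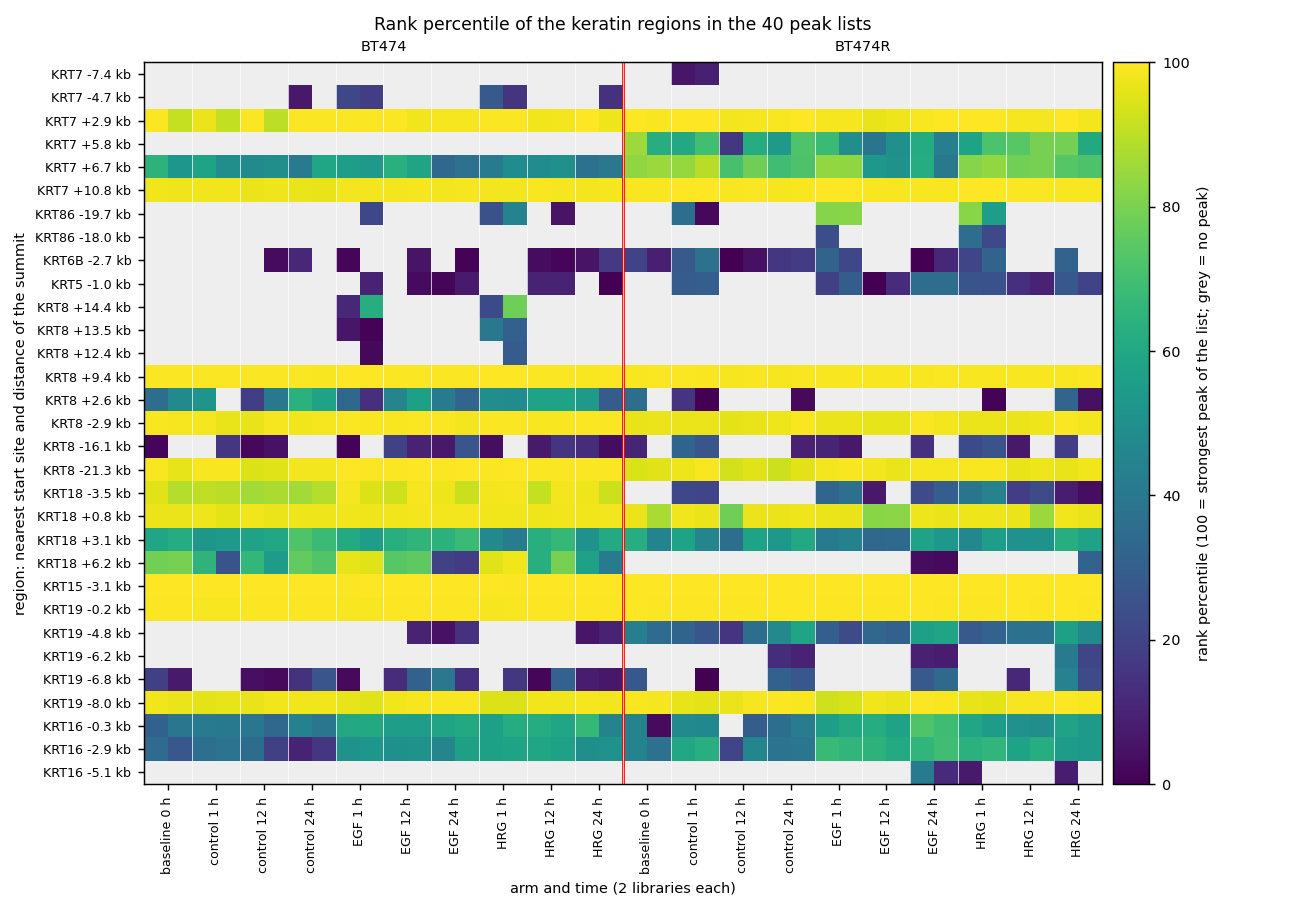
Rank percentile of each of the 31 keratin regions (rows, named by the nearest start site and the distance of the summit from it in kb) in each of the 40 libraries (columns, 2 per arm and time, BT474 left of the red line). Grey means that no peak was listed; 12 rows are filled in all 40 columns, and the KRT7 +5.8 kb row is empty in all 20 BT474 columns and filled in all 20 BT474R columns.

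Promoters of the 4 luminal keratins were open throughout. The region over the KRT19 start (chr17:41527146-41531166, hg38) had a median rank percentile of 99.4 in BT474 and 99.6 in BT474R. The KRT7 promoter region (chr12:52230992-52237247) stood at 99.0 in both lines, and that of KRT8 (chr12:52903219-52908717) at 99.0 in BT474 and 97.2 in BT474R. KRT18, the partner of KRT8 in simple epithelia, had a promoter region reaching into intron 1 (chr12:52948498-52950875) at 97.7 and 97.1. All 4 were wider than 2 kb, and the area that sets the rank grows with width. Another 5 regions stood as high, among them a 10380 bp region in KRT7 (summit in intron 6; 98.1 and 99.1), a 5918 bp region at the 3' end of KRT8 (99.4 and 99.1) and an 8890 bp region that covers the 3' part of KRT19 and also the start of its neighbour KRT15 (chr17:41517801-41526690; 99.9 in both lines). In all, 9 of the 12 always-open regions had a median over 95 in both lines, and the lowest value of these 9 in any library was 78.3.

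KRT5, the basal type II keratin, had 1 weak region at its promoter, with the summit at -1.0 kb from the start (chr12:52521247-52521561, hg38). KRT6B had 1 at -2.7 kb (chr12:52454449-52454981). The 3 regions in the window of KRT17 lay closer to KRT16, its neighbour and fellow stress keratin: at -0.33 kb from the KRT16 start (chr17:41612700-41613373), at -2.9 kb (chr17:41615302-41615886) and at -5.1 kb. The start of KRT17 itself had no region. KRT6A and KRT6B, and KRT14, KRT16 and KRT17, have near-identical copies in the genome, and processed copies of KRT8 and KRT18 are many, so reads in their exons may be shared, and how the mapping dealt with them is not given in the sources used here.

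The AP-1 motif TGANTCA, read by FOS and JUN factors, was within 75 bp of the summit in 5 of the 31 keratin regions (16.1%), against 13.97% of all regions in windows of the same 151 bp, with both strands searched. All 5 matches were TGAGTCA. They lay in the KRT5, KRT6B and KRT16 -0.33 kb regions and in 2 regions of KRT18. Windows around 4 of these summits are shown. They were picked because they hold the match, whose share was near that of all regions. The window of the KRT18 exon 6 region (offset -6) is not shown. The AP-1 match is in capitals (plus strand, hg38). Other capitals are matches to TGTGGTT, a RUNX motif, in KRT6B, and to GTAAACA and GGAATG, FOXA and TEAD motifs, in KRT18.
KRT5 -1.0 kb, chr12:52521317-52521467: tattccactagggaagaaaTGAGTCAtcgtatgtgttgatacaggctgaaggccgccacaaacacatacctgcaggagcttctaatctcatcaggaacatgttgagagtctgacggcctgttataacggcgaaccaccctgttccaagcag
KRT6B -2.7 kb, chr12:52454791-52454941: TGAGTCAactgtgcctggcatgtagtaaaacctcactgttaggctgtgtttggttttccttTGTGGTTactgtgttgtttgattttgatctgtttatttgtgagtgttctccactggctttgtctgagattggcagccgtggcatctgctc
KRT16 -0.33 kb, chr17:41613026-41613176: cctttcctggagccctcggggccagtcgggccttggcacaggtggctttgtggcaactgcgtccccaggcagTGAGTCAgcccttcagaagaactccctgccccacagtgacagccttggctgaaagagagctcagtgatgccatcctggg
KRT18 intron 1, chr12:52949882-52950032: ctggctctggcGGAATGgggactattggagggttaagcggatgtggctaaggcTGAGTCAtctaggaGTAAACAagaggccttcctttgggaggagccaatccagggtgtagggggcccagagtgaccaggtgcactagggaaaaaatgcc
The match lay 3 bp from the KRT16 summit (offset -3) and 22 bp from that of KRT18 (offset -22), but nearer the edge of the window in KRT5 (offset -56) and KRT6B (offset -75). Other motifs searched were FOXA TGTTTAC (6.45% of keratin regions, 7.14% of all), TFAP2 GCCNNNGGC (12.9% and 13.6%), GATA motif AGATAA (6.45% and 6.23%), SP/KLF GGGCGG (6.45% and 16.4%), RUNX TGTGGTT (6.45% and 3.45%) and GRHL AACCGGTT (0 and 0.275%). TEAD GGAATG was present in 10 of 31 keratin windows (32.3%) and in 10.9% of all. No test was run on these shares, and a match is not a bound site.

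The first comparison asked how the keratin regions differ between the resistant clone and the parental line. Presence was compared over 20 against 20 libraries (Fisher's exact test, two-sided, Benjamini-Hochberg over all regions that could be called). Of 12 keratin regions that could be called, 7 were (58.3%), 3 open more often and 4 less often in BT474R. The background was 71.7% of all such regions, with 27.2% higher and 44.6% lower in BT474R. Rank percentiles were compared with limma over all regions open in at least 50% of the libraries, with arm and time as a covariate. There, 14 of 22 keratin regions were called (63.6%), 7 higher and 7 lower in BT474R, against a background of 80.2% (27.8% higher, 52.4% lower). With the same number of peaks per library, 12548 of 31290 regions were higher and 13588 lower, in place of 13011 and 24517 of 46799, and the keratin regions were 5 higher and 5 lower of 15. Both keratin shares lay below the background, and the counts are no result about the keratin genes. Of the 22, 7 were open in under 50% of one line's libraries and met the limit through the other line, and 6 of these were called. Such regions had to differ, so their rank differences are given below as descriptions with no p. The median difference, BT474R minus BT474, was 0.16 points over the 22 tested keratin regions and -3.89 points over all.

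**Figure D2:**
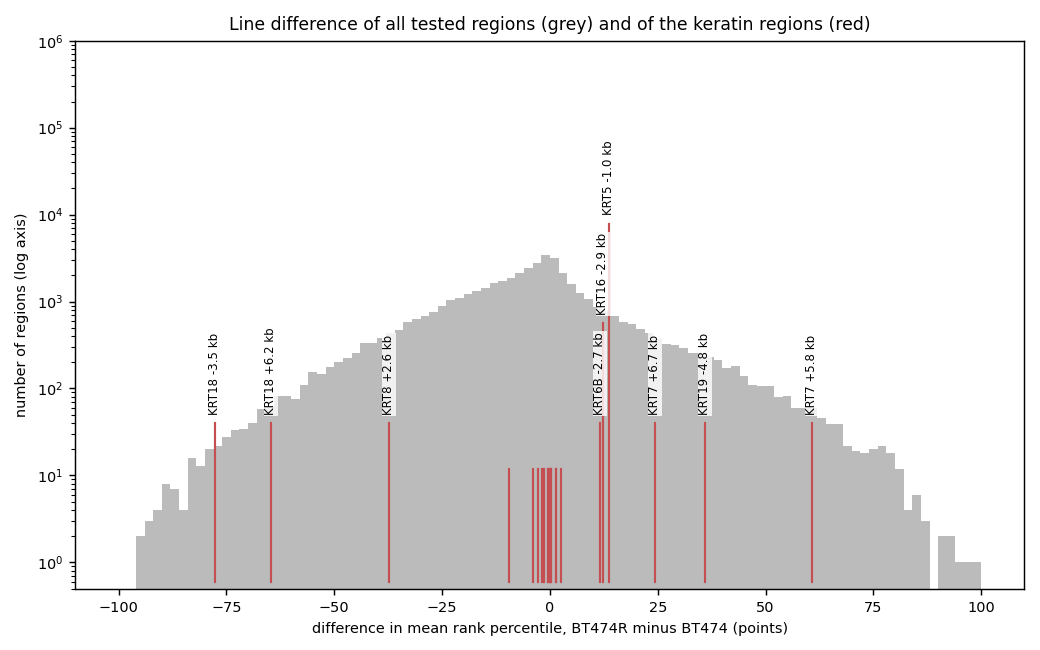
Histogram of the difference in mean rank percentile between BT474R and BT474 (x axis, points) over all 46799 tested regions (grey, log count axis), with the 22 tested keratin regions as red lines whose height carries no value. Regions with a difference over 10 points are named by the nearest start and the rounded distance in kb; KRT18 -3.5 kb lies at -77.8 and KRT7 +5.8 kb at 60.8.

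KRT7, the type II keratin of glandular epithelium, had a region in intron 4 that was listed in BT474R alone. It lay at +5.8 kb from the start (chr12:52237394-52239362), had no peak in any of the 20 BT474 libraries and a peak in all 20 BT474R libraries, where the rank percentile ran from 16.2 through a median of 61.6 to 85.4. The lines therefore did not overlap (Fisher's exact adjusted p = 1.9e-10), where 71.7% of all regions that could be called in presence were called. The share of all regions without overlap between the lines is not given, here or for the regions below. The lowest BT474R value, 16.2, belonged to a 12 h control library, the shortest list of the series. The region lies between the promoter region, which ends at 52237247, and the +6.7 kb region, which starts at 52239481. Both of these were open in all 40 libraries. Whether the splitting of broad peaks bore on its presence was not tested. On the rank scale the means differed by 60.8 points (SE 3.44), a description only. By the value at the summit in place of the area the KRT7 +5.8 kb difference was 11.3 points, a setting chosen after seeing the data.
The next region of the same intron (+6.7 kb, chr12:52239481-52241925) was open in all 40 libraries. It ran from 33.9 to 64.8 (median 49.5) in BT474 and from 40.1 to 89.4 (median 78.6) in BT474R, so the ranges overlapped, with a difference of 24.3 points (SE 2.71, limma adjusted p = 1.7e-09) that became 14.8 for KRT7 +6.7 kb by the summit value and 42.0 with equal list lengths. At the 10380 bp intron 6 region the difference was 1.33 points (SE 0.269, limma adjusted p = 5.0e-05), and the KRT7 promoter was not called (1.38 points, SE 0.759, limma adjusted p = 0.0948). The bases covered by peaks in the KRT7 window had a median of 10363 in BT474 and 16057 in BT474R. They count the peaks of the regions above, so they are not separate evidence. Regions within 1 Mb of KRT7, outside the keratin windows, had a median difference of -3.49 points. In the other direction, a region at -4.7 kb (chr12:52228428-52228744) was open in 6 BT474 libraries and no BT474R library (Fisher's exact adjusted p = 0.0287).

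KRT18 and KRT8, the pair of simple epithelium, had the regions that fell most in BT474R. The KRT18 -3.5 kb region (chr12:52945068-52947799), between the start sites of both genes, was open in all 20 BT474 libraries at 86.2 to 98.7 (median 92.5) and in 13 of 20 BT474R libraries at 0 to 44.3 (median 13.2). No BT474R library reached the lowest BT474 value. The difference was -77.8 points (SE 2.43, limma adjusted p = 2.4e-23), as large as or larger than that of 99.7% of tested regions, and it was -83.8 in baseline and control libraries alone and -66.1 by the summit value.
Downstream of KRT18, the +6.2 kb region (chr12:52952987-52957669) was open in all 20 BT474 libraries (17.4 to 97.8, median 73.5) and in 3 BT474R libraries (0 to 31.4), with a difference of -64.7 points (SE 5.08). It starts close to the always-open exon 6 region, which ends at 52952774, and the part of peak splitting was not tested. The KRT8 +2.6 kb region in intron 1 (chr12:52901306-52902665) was open in 19 BT474 and 7 BT474R libraries, with medians of 46.6 and 0 and overlapping ranges (difference -37.3, SE 4.33). By the summit value these became -13.0 and -4.54 points. Fisher's exact test called all 3 (adjusted p = 0.0133, 1.5e-07 and 0.00036, in the order given).
Both summits, +6.2 kb and +2.6 kb, held a stretch of bases typical of Alu repeats, found in 3 of 31 keratin windows (9.68%) against 0.316% of all. Its part in these values was not tested. The windows of the keratin regions with the largest difference in each direction are shown to let them be compared (plus strand, hg38; all in lower case, since neither holds a searched motif).
KRT18 -3.5 kb, chr12:52945541-52945691: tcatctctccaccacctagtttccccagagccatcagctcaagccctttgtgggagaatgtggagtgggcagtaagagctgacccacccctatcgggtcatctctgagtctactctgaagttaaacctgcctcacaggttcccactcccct
KRT7 +5.8 kb, chr12:52238949-52239099: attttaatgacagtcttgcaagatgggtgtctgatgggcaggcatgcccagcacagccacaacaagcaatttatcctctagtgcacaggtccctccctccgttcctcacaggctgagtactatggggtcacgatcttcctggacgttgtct
The other called regions of KRT8 and KRT18 differed by less than 10 points. The KRT18 exon 6 region (+3.1 kb, coding sequence) differed by -9.38 points (SE 2.36, limma adjusted p = 0.00064), the KRT18 promoter by -3.91, the KRT8 -21.3 kb region by -1.79 and the KRT8 promoter by -1.30. Relative to regions within 1 Mb, whose median difference was -1.88, the KRT8 -21.3 kb and promoter regions turned to 1.05 and 1.54 points and the KRT18 promoter to -0.93, none of them called (limma adjusted p = 0.496, 0.300 and 0.478). In baseline and control libraries alone the KRT18 promoter (-3.55 points) and the KRT8 promoter (-0.91) were not called either (limma adjusted p = 0.231 and 0.273). Covered bases in the KRT18 window had a median of 7387 in BT474 and 2777 in BT474R, and in the KRT8 window 20952 and 13070. These again count the peaks of the regions above.

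KRT19, a luminal marker, had a distal region that was higher in BT474R and a promoter that was not called. The -4.8 kb region (chr17:41532914-41533271) was open in all 20 BT474R libraries at 15.1 to 58.6 (median 35.6) and in 5 BT474 libraries, none above 14.3. The ranges did not overlap, and the difference in mean rank was 35.96 points (SE 2.14), with a call in presence (Fisher's exact adjusted p = 3.2e-06). All 5 open BT474 libraries were ligand-treated ones at 12 or 24 h. The promoter differed by 0.24 points (SE 0.244, limma adjusted p = 0.362). Of the remaining KRT19 and KRT8 regions open in part of both lines, that at -6.8 kb from KRT19 was open in 16 BT474 and 9 BT474R libraries (Fisher's exact adjusted p = 0.0610) and that at -16.1 kb from KRT8 in 14 and 11. A neighbouring region of KRT19 at -6.2 kb (chr17:41534279-41534792) was open in 6 BT474R libraries, which were all 6 collected at 24 h, control included, and in no BT474 library (Fisher's exact adjusted p = 0.0287). Regions within 1 Mb of KRT19 had a median difference of -10.9 points.

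The KRT5 and KRT6B regions were weak in both lines. The KRT5 promoter region was open in 7 BT474 libraries, at up to 9.96, and in 14 BT474R libraries, at up to 35.7 (medians 0 and 16.4). The mean rank differed by 13.7 points (SE 2.48), while the difference in presence was not called (Fisher's exact adjusted p = 0.0703). The KRT6B region was open in 9 and 15 libraries (medians 0 and 13.4), with a difference of 11.7 points (SE 2.85) and no call in presence (Fisher's exact adjusted p = 0.128). The peaks of these 2 regions reached at most 16.7 in BT474 and 37.8 in BT474R, and could not be tested with equal numbers of peaks per library. Between KRT16 and KRT17, the -2.9 kb region differed by 12.3 points (SE 2.01, limma adjusted p = 2.0e-06) with overlapping ranges, and the -0.33 kb region was not called (-2.84 points, limma adjusted p = 0.368).

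**Figure D3:**
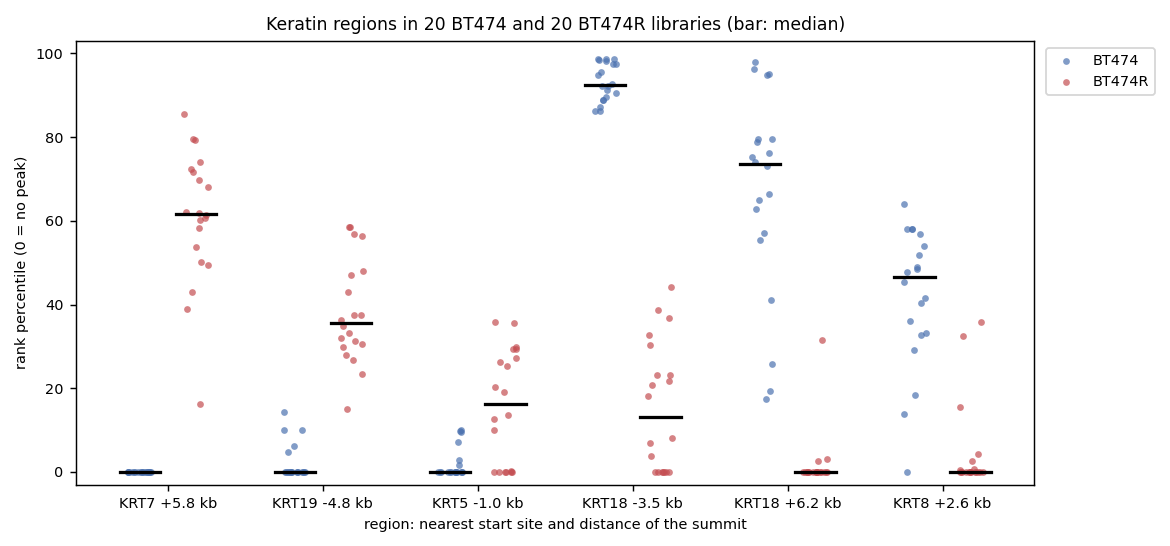
Rank percentile (y axis, 0 where no peak was listed) in each of 20 BT474 and 20 BT474R libraries (points) at 6 keratin regions, with black bars at the median. BT474 points lie at 0 for KRT7 +5.8 kb and above 86 for KRT18 -3.5 kb, and BT474R points do not reach them in either region.

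The second comparison asked what each ligand did within each line. EGF and HRG were each set against the same control libraries, so their results are not independent. Rank percentiles of 19 keratin regions were tested in each line, as means over 1, 12 and 24 h. In BT474, EGF libraries were higher in 4 of 19 (21.1%) and lower in none, against 17.6% higher and 1.29% lower among all regions (18.8% called). HRG-BT474 also had 4 higher and none lower, against 14.2% and 5.77% (19.9% called). EGF-BT474R had 5 higher (26.3%) and 1 lower (5.26%), against 11.9% and 4.3% (16.2% called), and HRG-BT474R had 4 higher and none lower, against 9.83% and 0.0608% (9.89% called). In BT474R, 2 of the higher regions of each ligand, KRT5 and KRT18 -3.5 kb, were open in under 50% of the control libraries and met the limit through the ligand libraries, so they are described below with no p. The median keratin difference was 1.2, 2.0, -0.013 and 0.98 points in these 4 comparisons, and that of all regions 1.26, -0.13, -0.038 and 3.18.

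Averaged over 1, 12 and 24 h, the 2 regions next to KRT16 rose with both ligands in both lines. At single times in BT474R, both were called at 12 and 24 h with EGF, but at 12 h only with HRG. In BT474 the -2.9 kb region was called at 12 and 24 h with EGF and at all times with HRG. The -0.33 kb region was called there only at 12 h with HRG. At -0.33 kb, the AP-1-bearing region shown above, control-BT474 libraries stood at 33.2 to 44.1 (median 39.9), EGF-BT474 at 55.5 to 60.8 (median 59.3) and HRG-BT474 at 44.7 to 66.8 (median 60.6). Neither ligand group overlapped the control group. The share of all regions without overlap between ligand and control libraries is not given, here or for the regions below. EGF-BT474 was 19.0 points higher (SE 3.13, limma adjusted p = 0.0019) and HRG-BT474 18.9 points (SE 3.13, limma adjusted p = 0.0018).
In BT474R the control libraries ran from 0 to 47.4 (median 39.1), EGF from 55.9 to 72.6 (median 61.1) and HRG from 49.3 to 59.3 (median 54.7), again without overlap. The differences were 29.2 points for EGF (SE 4.06, limma adjusted p = 0.00089) and 20.7 for HRG (SE 4.06, limma adjusted p = 0.0119). The library with no peak was control-BT474R at 12 h replicate 1, the shortest list. With any 1 library left out, the difference ran from 24.2 to 34.1 points for EGF and from 15.7 to 25.6 for HRG.
At -2.9 kb, control-BT474 ran from 9.62 to 38.2, EGF-BT474 from 45.7 to 57.0 and HRG-BT474 from 49.8 to 59.2, with differences of 25.5 and 29.7 points (SE 2.71 each, limma adjusted p = 0.00015 and 5.2e-05). The BT474 controls stood at 36.6 and 38.2 at 1 h and at 9.62 and 15.8 at 24 h, a difference that was not tested. In BT474R the control range, 20.9 to 62.7, met those of EGF (61.2 to 69.3) and HRG (54.2 to 65.7), with the 1 h controls at 60.1 and 62.7. The differences were 21.2 points for EGF (SE 3.37, limma adjusted p = 0.0019) and 15.4 for HRG (SE 3.37, limma adjusted p = 0.0191), and the HRG call was lost by the summit value (limma adjusted p = 0.0551) and without HRG replicate 2 at 1 h or control replicate 1 at 24 h.

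**Figure D4:**
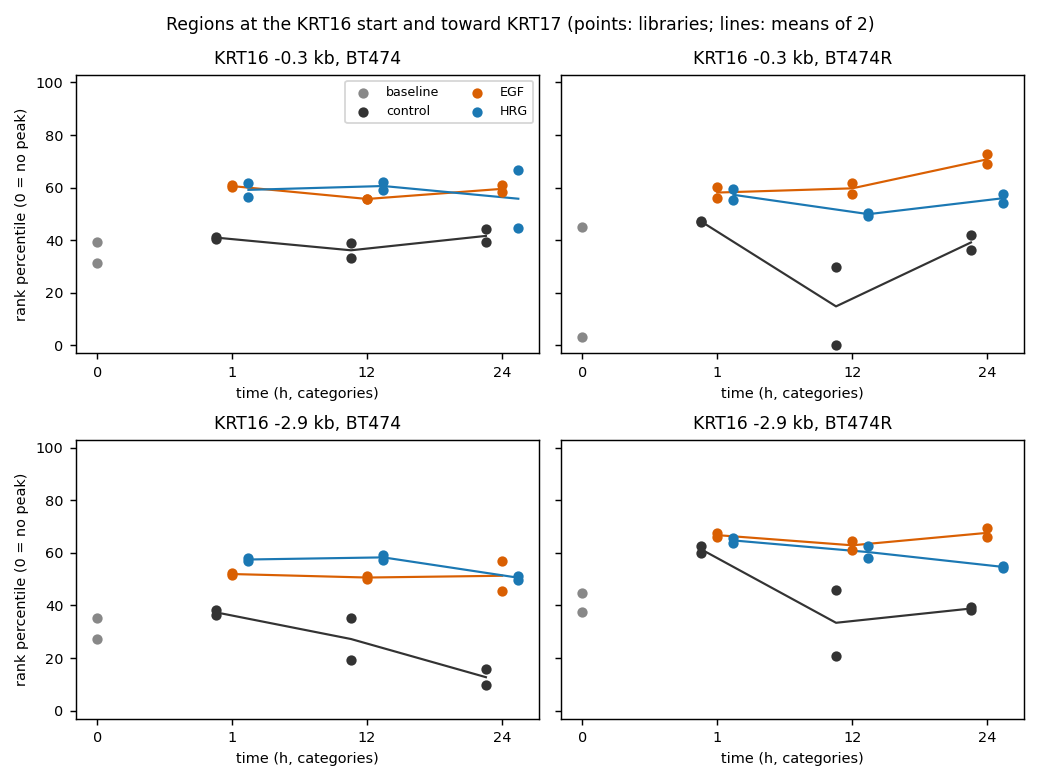
Rank percentile (y axis, 0 where no peak was listed) against time (h, evenly spaced categories) at the KRT16 -0.33 kb and -2.9 kb regions in BT474 and BT474R, with a point per library and lines through the mean of 2. EGF and HRG points at -0.33 kb lie between 44.7 and 72.6, above every control point of the same line.

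KRT18 -3.5 kb rose with both ligands in BT474, where it went from 86.2 to 90.6 in control libraries to 92.1 to 98.6 with EGF and 91.1 to 98.7 with HRG, without overlap, at 7.58 and 7.90 points (SE 1.70 each, limma adjusted p = 0.0104 and 0.0080). In BT474R, 4 of 6 control libraries had no peak and the pair at 1 h stood at 20.7 and 21.7. EGF libraries stood at 32.7 and 36.7 at 1 h, 0 and 6.95 at 12 h, and 23.2 and 30.3 at 24 h, and HRG libraries at 38.7 and 44.3, 18.2 and 23.1, and 3.75 and 8.19. The mean differences were 14.6 and 15.6 points (SE 1.85 each), and by the summit value 0.80 and 1.91 points. The highest BT474R library, at 44.3, stayed below every BT474 library. KRT8 -21.3 kb, already near the top of each list, rose by 2.11 and 2.10 points in BT474 (SE 0.468 each, limma adjusted p = 0.0100 and 0.0096) and by 2.87 with EGF in BT474R (SE 0.837, limma adjusted p = 0.0416), a call that was lost in 14 of 18 fits with 1 library left out.

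The KRT5 promoter region had a peak in no control or baseline library of BT474, in 4 of 6 EGF and in 3 of 6 HRG libraries, none above 9.96, too few for the rank test there. In BT474R it was open in all 6 EGF libraries (0.18 to 35.7, median 24.3), all 6 HRG libraries (9.99 to 27.2, median 22.8) and 2 of 6 control libraries. The 2 open controls were those at 1 h, at 29.3 and 29.8, while those at 12 and 24 h and at baseline had no peak, so the groups overlapped at 1 h. The EGF mean was 12.3 points above control and the HRG mean 10.6 (SE 2.37 each). The 1 h control lists were also the longest of the BT474R controls, with 54256 and 56494 peaks against 32479 to 45799 at 12 and 24 h, and the part of list length was not tested. At 24 h alone, where both controls were at 0, EGF stood at 35.6 and 35.7 and HRG at 20.3 and 27.2. The 24 h control lists held 41833 and 45799 peaks, those with EGF 52126 and 51080, and those with HRG 55289 and 44351. Here too the part of list length was not tested. In the opposite direction, KRT7 +6.7 kb was 15.2 points lower with EGF in BT474R (SE 3.11, limma adjusted p = 0.0078), at 50.9 and 53.5 at 12 h against control values of 70.8 and 78.3, and was not called by the summit value (limma adjusted p = 0.265).

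**Figure D5:**
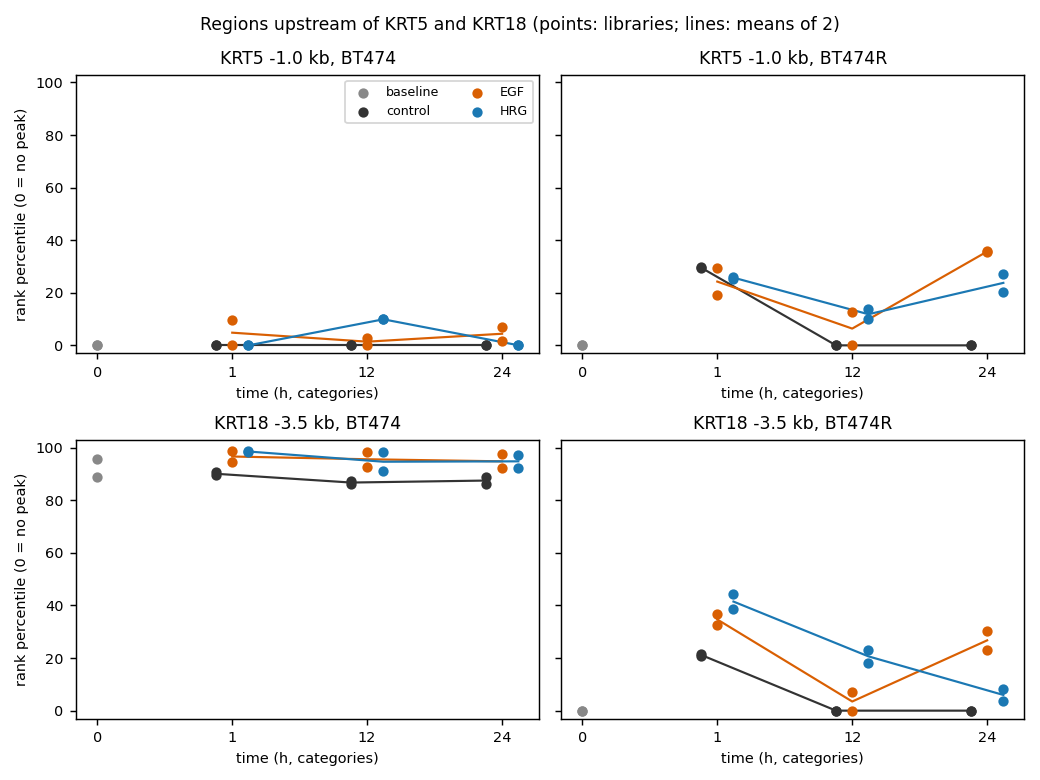
Rank percentile (y axis, 0 where no peak was listed) against time (h, evenly spaced categories) at the KRT5 -1.0 kb and KRT18 -3.5 kb regions in BT474 and BT474R, with a point per library and lines through the mean of 2. KRT5 control points of BT474R stand at 29.3 and 29.8 at 1 h and at 0 at 12 and 24 h, and all BT474 points of KRT18 stand above 86.

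At single time points, 24 calls were made over the 12 comparisons of 19 keratin regions each, 20 higher and 4 lower, out of 228 tests. Of the higher calls, 4 were in BT474R at KRT5 and KRT18 -3.5 kb, which met the limit through the ligand libraries. Of all regions, EGF-BT474 had 3.31%, 8.08% and 13.1% called at 1, 12 and 24 h and HRG-BT474 9.34%, 10.1% and 11.6%. In BT474R, EGF had 0.801%, 7.29% and 15.0% called and HRG 0.0675%, 11.7% and 1.61%. The largest called differences were at the KRT18 +6.2 kb region. In BT474 it stood at 95.2 and 96.3 with EGF and 94.9 and 97.8 with HRG at 1 h, against 25.8 and 65.0 in the controls, then at 17.4 and 19.3 with EGF at 24 h against 73.0 and 76.1. The differences were 50.3, 51.0 and -56.2 points (SE 10.4 each, limma adjusted p = 0.0308, 0.0149 and 0.0067), and averaged over the 3 times they left no call (limma adjusted p = 0.840 for EGF and 0.213 for HRG). HRG at 24 h lowered the KRT18 exon 6 region in BT474 by 14.1 points (from 70.3 to 56.3, SE 3.44, limma adjusted p = 0.0256), and the other 2 falls were those of KRT7 +6.7 kb with EGF in BT474R at 12 and 24 h (-22.4 and -19.7 points). No keratin region was called at 1 h in BT474R with either ligand.

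Several regions were open at 1 h alone, a pattern picked out after the values were seen and not tested. Downstream of KRT8, 3 neighbouring regions (+12.4, +13.5 and +14.4 kb from the start) had a peak in ligand-treated BT474 libraries at 1 h and in no other of the 40. The +14.4 kb region stood at 11.6 and 62.4 with EGF and at 22.4 and 78.02 with HRG. The +13.5 kb region stood at 0.80 and 6.13 with EGF and 31.0 and 39.99 with HRG, and the +12.4 kb region was open in 1 library of each ligand. Downstream of KRT7, a region nearest the KRT86 start (-19.7 kb) was open in all 6 BT474R libraries at 1 h and in none at other times, at 81.9 and 82.4 with EGF, 56.1 and 82.1 with HRG and 2.27 and 36.1 in the controls. In BT474 it was open in 3 of 6 libraries at 1 h, all ligand-treated, and in 1 at 12 h. It starts at 52252679, close to the intron 6 region of KRT7, which ends at 52252605. The part of peak splitting was not tested, here or at the 3 neighbouring KRT8 regions.

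Presence was also compared between ligand and control, 6 libraries against 6. No keratin region was called, with or without adjustment (Fisher's exact test, 1 region testable in BT474 and 3 in BT474R for each ligand), where 6.46% of all testable regions were called for EGF-BT474, 8.98% for HRG-BT474 and 0.0% for each ligand in BT474R. At an unadjusted p the shares of all regions were 19.0% and 24.7% in BT474 and 4.08% and 2.31% in BT474R, for EGF and HRG in that order. A count of 0 from 6 against 6 libraries does not show that presence was alike. On simulated data this test recovered 0.0% of planted changes of 95% against 5% open, for each ligand and line. The effect of a ligand was then compared between the lines with an interaction term in limma over 36 libraries. None of 44 tests on 22 keratin regions was called, where 5.0% of all regions were called for EGF and 4.75% for HRG. At an unadjusted p below 0.05 there were 10 keratin tests. The share of all regions at that unlike threshold is not given, so the 10 is no result about the keratin regions. The smallest adjusted p was 0.0523, for EGF at KRT7 +6.7 kb (-14.8 points, BT474R minus BT474, SE 4.30). With 1 library left out the count of adjusted calls ran from 0 to 3. The effects were therefore not shown to differ between the lines, nor shown to be alike.

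Relatives and partners of the keratins were read from a fixed list of 26 genes by a peak within 1 kb of the start. Of these, 14 were open in all 40 libraries, 11 in none and KRT16 in 39. Those without a listed peak included the hair keratins KRT81 and KRT86 and the keratins of stratified skin KRT1, KRT2 and KRT10. Between the lines, 15 could be tested and 7 were called (46.7%, against 80.2% of all regions), 6 of them lower (40%, against 52.4%), so both shares lay below the background. KRT80 was higher in BT474R by 2.19 points. The 6 lower genes were DSP (desmoplakin) with a difference of -8.28 points, PKP1, PKP2 and PKP3 (plakophilins) with -9.79, -10.1 and -11.8, EVPL (envoplakin) with -4.22 and DST (dystonin) with -2.74 (largest limma adjusted p = 0.0228). The desmosome genes JUP (-0.29 points) and PPL (-1.99) were not called. The list median was -2.21 points, against -3.89 over all regions. With ligand, 3 of 15 rose in BT474 with EGF and with HRG, which were KRT16, KRT4 and KRT80, a share of 20% against 17.6% and 14.2% of all regions. In BT474R, KRT16 alone rose with either ligand (6.67%, against 11.9% and 9.83%). KRT16 is on this list through the -0.33 kb region already described.

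Among promoters of protein-coding genes, those most like the KRT5 promoter over the 40 libraries were MMP1 (Spearman rho 0.852), DAPP1 (0.844) and TEX47 (0.833), of 12789 compared. KRT5 was used because its rank percentile varied most among the keratin promoters (SD 12.0). These correlations are descriptions over libraries that share line, time and list length.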

How the data were processed

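ATAC-seq was read from 40 peak lists, 2 for each of 20 groups. The authors trimmed reads with Trim Galore 0.6.6, mapped them to GRCh38 with BBMap and called peaks per library with Genrich, which also removed mitochondrial and blacklisted reads. The deposited lists give a score, the area under the −log10 p curve of each peak (a signal, used here for ranking; no listed peak was below 200), and the −log10 p at the summit. No source used here gives the Genrich options, and depth is unknown, so no counting interval was computed.

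Regions were placed on GENCODE 44. Presence was tested with Fisher's exact test and rank percentiles with limma 3.58.1 (R 4.3.3), on regions open in at least 50% of the libraries fitted, with Benjamini-Hochberg adjustment over all regions tested and a threshold of 0.05. Tables were built in Python 3.11.15 (pandas 2.3.3, numpy 2.4.6, scipy 1.17.1, and matplotlib 3.10.9 for plots), and the tests were tested on simulated data. There, limma recovered 79% of planted 10-point changes between the lines, 43% for EGF-BT474 and 20% for EGF-BT474R. For 20-point changes these shares were 100%, 72% and 56%. Fisher's exact test recovered 100% of changes of 95% against 5% open between the lines and 0.0% for each ligand and line. Alternatives were equal list lengths, stricter score, region, opening and window limits, log2 values, ranks relative to neighbours, baseline and control libraries alone, a replicate block, and each library left out, and, chosen after seeing the data, a minimum area of 400 and the summit value.

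Regions are named where they cover a start, rank highest for a gene or were called in any comparison. Others named were chosen after their values were seen. Members and lists were chosen with earlier results of these data known. Sequences are hg38, plus strand. Some items are not reported here.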

Additional observations from a re-analysis of the deposited data

How the results depend on the processing

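In presence, the 7 calls between the lines became 3 within 2 kb of the genes. In rank, the 14 calls between the lines became 8 with an area of at least 400 and 8 with regions open in every library. The 24 calls at single time points became 9 within 2 kb. The 0 calls between the lines in ligand effect became 3 with equal list lengths, 1 with an area of at least 400, 1 by the summit value and 2 on the log2 scale. Within 2 kb, the EGF-BT474, HRG-BT474 and HRG-BT474R calls became 2, 2 and 2. With regions open in every library, EGF-BT474R kept a count of 3 of 6 and HRG-BT474R 1 of 4. HRG-BT474R had 2 calls with equal list lengths, 2 with an area of at least 400 and 1 on the log2 scale, where HRG-BT474 had 7. Fewer regions could be tested under the window, area and opening limits, and otherwise the cause was not tested. Relative to neighbours, the KRT8 promoter (1.54 points) and the KRT8 -21.3 kb region (1.05 points) reversed between the lines. With 1 library left out, counts ran from 7 to 9 (presence, lines), 0 to 0 (presence, each ligand and line), 13 to 15 (rank, lines), 20 to 29 (time points), 0 to 3 (ligand effect between lines), 4 to 5 (EGF-BT474), 5 to 6 (EGF-BT474R), 4 to 5 (HRG-BT474) and 2 to 6 (HRG-BT474R). HRG-BT474R fell to 2 without its 1 h replicate 2 or control-BT474R 24 h replicate 1. The ligand effect between lines rose to 3 without control-BT474R 12 h replicate 1 or 2, to 2 without control-BT474 12 h replicate 1, and to 1 without EGF-BT474 1 h replicate 2, control-BT474 24 h replicate 2, or EGF-BT474R replicate 1 at 1, 12 or 24 h. Correlations of same-numbered replicate deviations had a median of -0.00068 in BT474 and -0.0084 in BT474R. They ran up to 0.575 and 0.361, with 4 and 7 of 36 group pairs above 0.1, so pairing within some groups was not excluded. The replicate block gave 14 calls between the lines, 25 at single time points and 0 between lines in ligand effect. It gave 4, 6, 4 and 4 for EGF-BT474, EGF-BT474R, HRG-BT474 and HRG-BT474R, and 7 in presence. Peak lists without depth limit every value: a weak region may be missing from a short list, and a rank says nothing of absolute accessibility.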
